A study of Mus musculus with 13 samples.

Results

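Cells dispose of hydrogen peroxide, lipid peroxides and reactive chemicals through thiol chemistry. Glutathione and thioredoxin supply the reducing power, peroxidases and peroxiredoxins use it on peroxides, transferases join glutathione to reactive molecules, and NADPH restores the reduced forms. Many of these genes carry an antioxidant response element, which is bound by the transcription factor NRF2. In unstressed cells the adaptor KEAP1 holds NRF2 in the cytoplasm and hands it to a ubiquitin ligase, so NRF2 is mainly set by its protein stability and not by its transcript. Skeletal muscle fibres consume much oxygen when they contract and rely on this system heavily. The genes examined here are 40 antioxidant, glutathione and NRF2 genes chosen by symbol, among the 16382 genes of the tables. Of the 40, 39 were measured, and all 39 had a mean normalized count of 10 or more over the libraries and passed the filter on low counts. Gpx7, a glutathione peroxidase, was not analysed here.

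RNA-seq was carried out on myotubes of C2C12, a mouse myoblast line that fuses into multinucleated muscle cells in low serum. On day 8 of differentiation the wild-type cells were given the fatty acid amide palmitoylethanolamide (PEA, 10 µM) or only its solvent, DMSO (CON), for 24 h. There were 6 libraries per group, from duplicate wells in a repeated experiment. The methods call these wells technical replicates, so each group held fewer independent experiments than libraries. The labels do not tie wells to repeats, so the tests took the 6 libraries of a group as independent. They measure the spread between these libraries, part of which is technical. A fit without 1 library leaves out a well and not a whole experiment. In addition, 1 cell line stands for the tissue.

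The libraries held 12354845 to 50397444 estimated counts (median 18420606), and the deepest, CON replicate 1, held 2.25 times the total of the second deepest. The myotube markers were abundant, with Acta1, skeletal muscle actin, at a mean of 56797 normalized counts in CON and 48375 in PEA. The 19 myotube markers summed to 166691 to 249366 in CON and 172694 to 193765 in PEA. Of them 5 were lower in PEA and 0 higher, Tnni2 (fast troponin I) with a log2 fold change of -0.47 (edgeR adjusted p = 0.000529). The 8 division markers were all higher in PEA, Mki67 by 1.03 on the log2 scale (edgeR adjusted p = 0.0149), and their sum was 2779 to 7144 in CON and 7390 to 8821 in PEA. Of 9 markers of undifferentiated myoblasts and reserve cells tested, 1 was higher and 2 were lower (sums 7365 to 8373 in CON, 7155 to 8068 in PEA). Cells of other types left little signal. The 3 leukocyte markers measured of 5 listed summed to 51.1 to 139 in CON and 78.8 to 125 in PEA, nearly all of it Cd68, while Ptprc, which marks all leukocytes, averaged 0.319 and 0.843. Endothelial markers summed to 8.23 to 28.5 and 12.6 to 26.5, and Plin1, the 1 adipocyte marker measured of 4 listed, reached at most 1.57 and 8.4. The shift in division and myotube markers followed the same groups as the antioxidant genes described below, and its part in those results was not tested. A change in the number of cells of a kind and a change in RNA per cell cannot be told apart in these bulk libraries.

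PEA was followed by changes in 10 of the 39 antioxidant genes at an adjusted p below 0.05 in edgeR's quasi-likelihood test (Benjamini-Hochberg adjustment over all genes tested), 6 upward and 4 downward. The 6 that rose were Nqo1, Hmox1, Txnrd1, Srxn1, Gpx3 and Sod3, and the 4 that fell were Prdx6, Gstm1, Gstp1 and Mgst1. Over all genes tested, 1452 of 13142 were called, or 11.0%, with 6.31% higher and 4.74% lower in PEA. The antioxidant genes are mostly abundant, 38 of 39 having a mean of at least 300 normalized counts. Among all genes at that level 12.9% were called, against 10 of these 38. The members were chosen with earlier results of these data known, so the shares are given as a description only. The changes were small. Log2 fold changes ran from -0.25 to 0.51, 18 were positive and 21 negative, and their median was -0.023 where that of all genes tested was 0.005. For 4 members no PEA library fell within the CON range, Txnrd1, Prdx6, Gstp1 and Fth1, and the groups were likewise apart for 4.34% of all genes tested. DESeq2, which calls 14.5% of the genes it tests, called 13 members. It added Gclc, Txn1, Prdx1 and Fth1 and left out Gpx3.

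**Figure D1:**
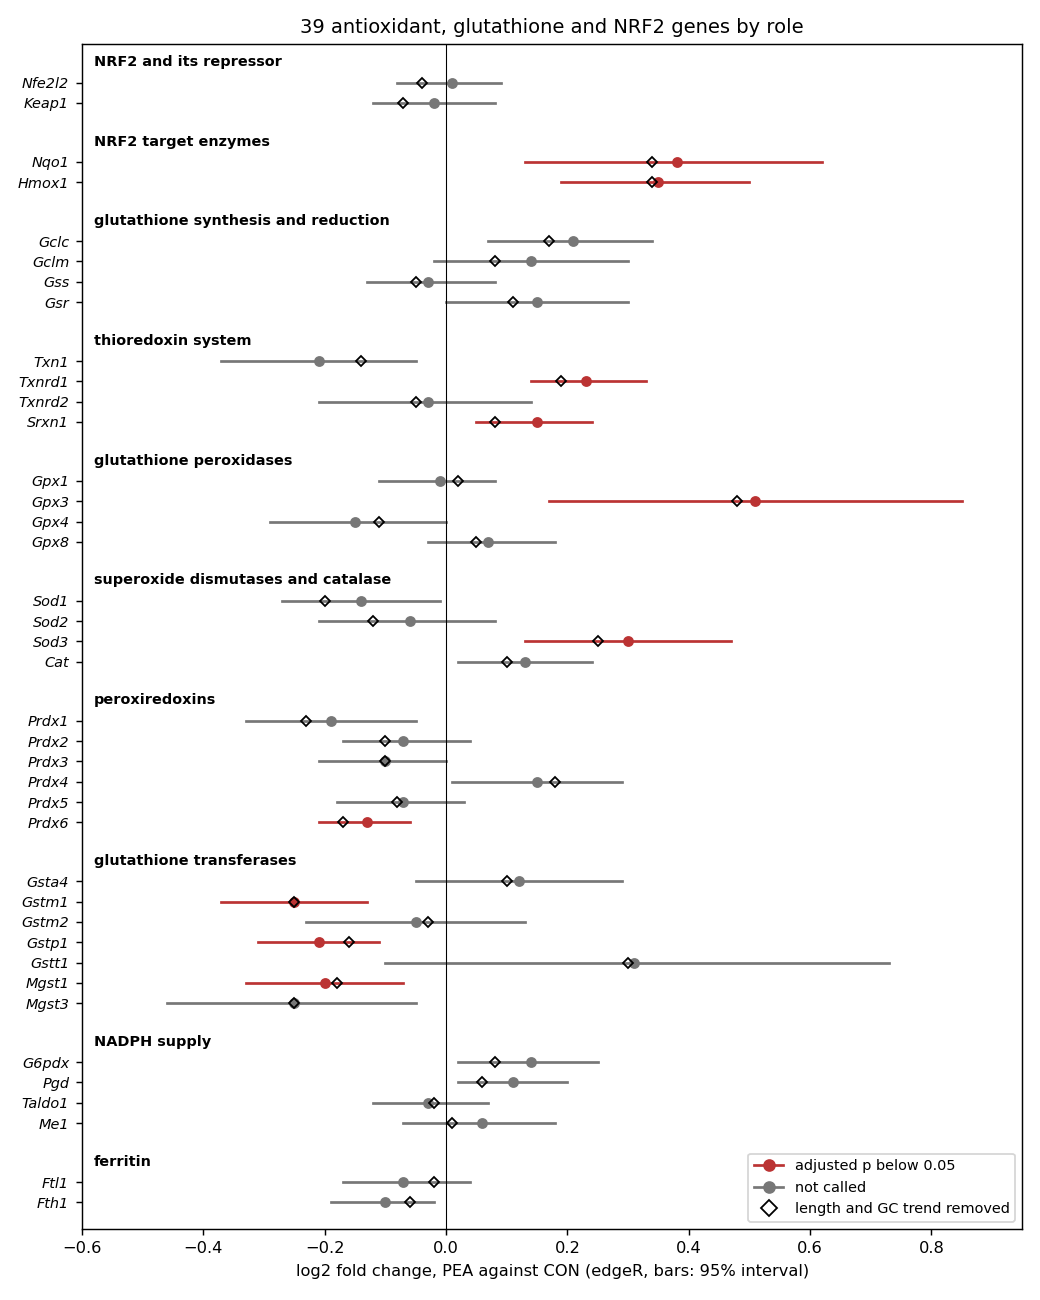
Log2 fold change, PEA against CON, of the 39 antioxidant genes measured, grouped by role, with 95% intervals (horizontal axis, log2 scale, edgeR). Filled circles are red where the adjusted p is below 0.05 and grey otherwise, and open diamonds give the value after a trend with transcript length and GC content was removed and libraries recentred. The 6 genes that rose lie between 0.15 and 0.51 and the 4 that fell between -0.25 and -0.13.

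Promoter sequences of RefSeq (build GRCm38.p6, 250 bases before to 50 after each start) were matched by symbol for 34 of the 40 genes listed (none for Hmox1, Gclc, Gsr, Sod3, Prdx6 and Gsta4) and were searched on both strands for TGACNNNGC, the core of the antioxidant response element. It occurred in at least 1 promoter of 10 of these 34 genes (29.4%), of 17.0% of all genes tested that had a sequence, and of 14.0% of all genes with one. The 10 were G6pdx, Gclm, Me1, Mgst1, Nfe2l2, Pgd, Prdx1, Sod1, Srxn1 and Txnrd1. Of the genes that rose, 4 had a sequence and 2 of them held the motif (Srxn1, after its start, and Txnrd1). Of the genes that fell, 3 had a sequence and 1 held it (Mgst1), and of the 26 measured but not called 7 did. A match is a string of letters and not a measured site, and no match says only that the letters are not in this window. The following windows show the motif in capitals for 1 gene that rose, 1 that fell and 2 that were not called, each 69 bases long. All read 5′ to 3′ on the gene's strand, where the motif appears in its reverse form, GCNNNGTCA.
Txnrd1 (chr10:82859084-82859152, plus strand, 92 bases before 1 of its starts, rose): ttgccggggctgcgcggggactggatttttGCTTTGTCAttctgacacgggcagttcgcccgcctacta
Mgst1 (chr6:138140441-138140509, plus strand, 56 bases before the start, fell): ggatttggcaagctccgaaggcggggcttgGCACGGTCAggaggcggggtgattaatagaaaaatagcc
Gclm (chr3:122245393-122245461, plus strand, 134 bases before the start, not called): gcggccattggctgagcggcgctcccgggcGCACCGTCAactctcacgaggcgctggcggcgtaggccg
Prdx1 (chr4:116685436-116685504, plus strand, 133 bases before the start, not called): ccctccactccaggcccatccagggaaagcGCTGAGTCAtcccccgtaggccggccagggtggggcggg
The Prdx1 match also holds TGAGTCA, the motif of the AP-1 factors, and the other 3 do not. The letters alone thus occurred near genes that rose, fell and did not pass the test.

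The transcripts of NRF2 and of its repressor had log2 fold changes near 0. Nfe2l2, which encodes NRF2 (ENSMUSG00000015839, GRCm39 chromosome 2, 75504739 to 75534985), had a lowest, median and highest normalized count of 4329, 4493 and 4582 in CON and of 4300, 4451 and 4735 in PEA. The log2 fold change, PEA against CON, was 0.01 (95% interval -0.08 to 0.09, edgeR adjusted p = 0.946), and the PEA libraries lay on both sides of the CON range. Keap1, the repressor, measured 1435 ± 56.8 in CON and 1410 ± 72.7 in PEA (mean ± SD of normalized counts, n = 6 in each group here and below), a difference of -0.02 on the log2 scale (95% interval -0.12 to 0.08). Neither gene was compared by a test with the 10 genes called. Among those genes, the intervals of Srxn1 (0.05 to 0.24) and Prdx6 (-0.21 to -0.06) overlap both of these.

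Nqo1 and Hmox1, enzymes widely used as readouts of NRF2, were both higher in PEA. NQO1 reduces quinones with NADPH or NADH. Nqo1 (ENSMUSG00000003849, chromosome 8, 108113835 to 108129934) measured 356 to 583 in CON (median 447) and 488 to 682 in PEA (median 582). All 6 PEA libraries lay above the CON median and 3 above the highest CON library, which was CON replicate 2. The log2 fold change was 0.38 (95% interval 0.13 to 0.62, edgeR adjusted p = 0.0456). HMOX1 breaks down heme to biliverdin, iron and carbon monoxide. Hmox1 (ENSMUSG00000005413, chromosome 8, 75820241 to 75827217) measured 1859 to 2348 in CON (median 2004) and 2244 to 2976 in PEA (median 2720). Here 4 PEA libraries exceeded every CON library, while PEA replicates 1 and 3, at 2244 and 2254, fell below CON replicate 2. This was a log2 fold change of 0.35 (95% interval 0.19 to 0.50, edgeR adjusted p = 0.00795), a rise of 1.27-fold. The call for Hmox1 held in each of the 12 fits that left out 1 library. That for Nqo1 held in 3 of them, without CON replicate 2 (adjusted p = 0.00816), CON replicate 4 (0.0352) and PEA replicate 1 (0.0317), and its p rose to at most 0.11 without PEA replicate 6. When a trend with transcript length and GC content was removed, Nqo1 was not called (log2 fold change 0.34, adjusted p = 0.0561).

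**Figure D2:**
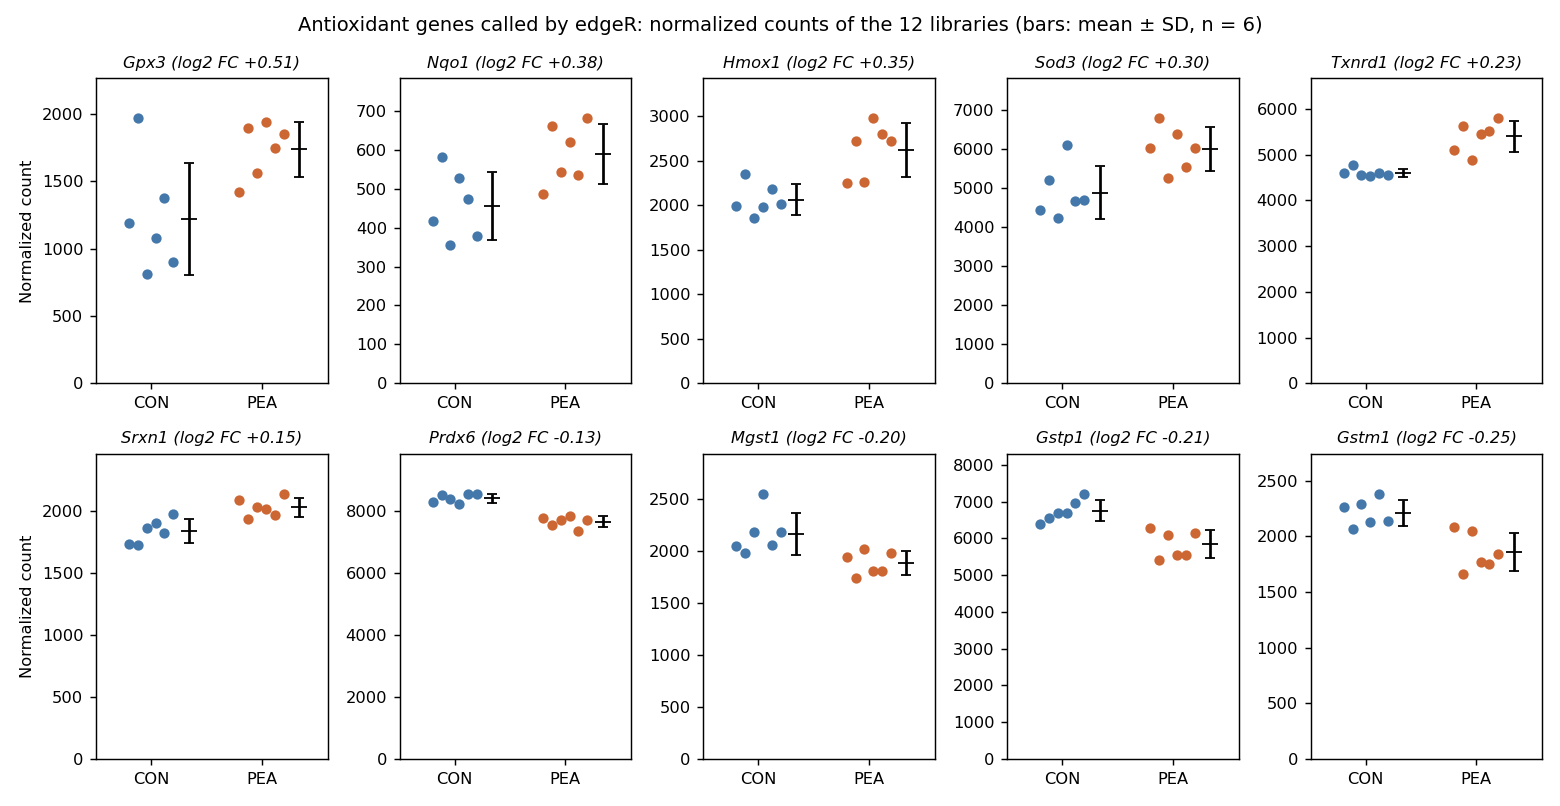
Normalized counts (vertical axes, from 0) of the 10 antioxidant genes called by edgeR, 1 panel a gene, in the 6 CON (blue) and 6 PEA (orange) libraries in replicate order, with mean ± SD beside each group. Txnrd1, Prdx6 and Gstp1 show no overlap between the groups, whereas CON replicate 2 holds the highest Gpx3 value of all libraries, 1969.

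Of the 4 genes of glutathione synthesis and reduction, 0 passed the edgeR test. Gclc, the catalytic subunit of the rate-limiting ligase of glutathione synthesis, came closest. It measured 688 to 881 in CON (median 773) and 832 to 954 in PEA (median 885), with a log2 fold change of 0.21 (95% interval 0.07 to 0.34, edgeR adjusted p = 0.0516, DESeq2 0.0417). Its partner Gclm, the modifier subunit, had 736 ± 85.5 in CON and 809 ± 67.6 in PEA (0.14 on the log2 scale, 95% interval -0.02 to 0.30). Of the 12 edgeR fits without 1 library, 1 called these genes, that without CON replicate 3 (adjusted p = 0.0205 for Gclc and 0.0491 for Gclm). With all libraries kept, 4 of the 12 alternatives called Gclc and 0 called Gclm. Gsr, which reduces oxidized glutathione, had 906 ± 89.2 and 1001 ± 79.9 (0.15, 95% interval 0.00 to 0.30). Gss, which adds glycine in the last step, had 1368 ± 75.1 and 1339 ± 63.6 (-0.03, 95% interval -0.13 to 0.08).

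Within the thioredoxin system the cytosolic reductase and sulfiredoxin rose, and thioredoxin itself was not called. Txnrd1, the selenoenzyme that reduces thioredoxin in the cytosol (ENSMUSG00000020250, chromosome 10, 82669785 to 82733546), measured 4536 to 4780 in CON (median 4575) and 4894 to 5802 in PEA (median 5487). Every PEA library lay above every CON library, and the CON libraries were tightly grouped, with an SD of 90 around 4605. The log2 fold change was 0.23 (95% interval 0.14 to 0.33, edgeR adjusted p = 0.00518), and each of the 12 fits without 1 library called it. Srxn1, sulfiredoxin, which repairs overoxidized peroxiredoxins (ENSMUSG00000032802, chromosome 2, 151947436 to 151957687), measured 1727 to 1979 in CON (median 1843) and 1937 to 2139 in PEA (median 2024). It was higher in 4 PEA libraries than in any CON library, with a log2 fold change of 0.15 (95% interval 0.05 to 0.24, edgeR adjusted p = 0.0451). This call was among the least firm. Of the fits without 1 library it held without CON replicate 4 (0.0445) or CON replicate 6 (0.0388) only, and it reached 0.107 without PEA replicate 6. It fell away when a trend with transcript length and GC content was removed (log2 fold change 0.08, adjusted p = 0.403). With all libraries kept, 6 of the 12 alternatives called Srxn1. Those that did not included median-ratio factors (0.0519), no filter on low counts (0.0584), the replicate block (0.0503) and thinning to the smallest library (0.0667). Txn1, cytosolic thioredoxin, measured 5059 to 6598 in CON (median 5602) and 4359 to 5573 in PEA (median 4760), a log2 fold change of -0.21 (95% interval -0.37 to -0.05, edgeR adjusted p = 0.0877, DESeq2 0.0497). The mitochondrial reductase Txnrd2 had 343 ± 21.5 and 334 ± 41.1 (-0.03, 95% interval -0.21 to 0.14).

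Among the 4 glutathione peroxidases measured, Gpx3 was the 1 called. GPX3 is the secreted enzyme found in plasma. Gpx3 (ENSMUSG00000018339, chromosome 11, 54793279 to 54802424) measured 815 to 1969 in CON (median 1135) and 1423 to 1941 in PEA (median 1799). All PEA libraries exceeded the CON median and 0 exceeded the highest CON library, since CON replicate 2 stood above all 12. The log2 fold change of 0.51 (95% interval 0.17 to 0.85, edgeR adjusted p = 0.0487, DESeq2 0.0713) was the largest of the 39 genes and also had a wide interval. It was called in 2 of the 12 fits without 1 library, at an adjusted p of 0.00063 without CON replicate 2 and of 0.0416 without PEA replicate 1, and reached 0.107 without CON replicate 6. After thinning to the smallest library the adjusted p was 0.0614. Its exons share 787 bases with Tnip1 on the opposite strand, and reads cannot be assigned to a strand where the library kit is not stated to keep it. Tnip1 had a log2 fold change of 0.02. The intracellular enzymes did not pass the test. Gpx1, the main cytosolic peroxidase, had 5315 ± 277 and 5253 ± 165 (-0.01, 95% interval -0.11 to 0.08). Gpx4, which reduces lipid peroxides in membranes and guards against ferroptosis, had 1823 ± 175 and 1642 ± 150 (log2 fold change -0.15, edgeR adjusted p = 0.17). Gpx8, a membrane protein of the endoplasmic reticulum, had 3243 ± 199 and 3403 ± 183 (0.07, 95% interval -0.03 to 0.18).

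The superoxide dismutases convert superoxide to hydrogen peroxide, and of the 3 the extracellular enzyme was called. Sod3 (ENSMUSG00000072941, chromosome 5, 52521070 to 52528883) measured 4240 to 6094 in CON (median 4671) and 5259 to 6793 in PEA (median 6022). CON replicate 4 lay within the PEA range, the other CON libraries at or below 5198. Sod3 had a log2 fold change of 0.30 (95% interval 0.13 to 0.47, edgeR adjusted p = 0.0262). It kept its call in 6 of the 12 fits without 1 library and lost it without CON replicate 1 (0.0549), CON replicate 5 (0.0561), CON replicate 6 (0.0589), PEA replicate 2 (0.0669), PEA replicate 4 (0.0595) and PEA replicate 6 (0.0553). Cytosolic Sod1 had 3550 ± 272 in CON and 3213 ± 273 in PEA (-0.14, 95% interval -0.27 to -0.01, edgeR adjusted p = 0.143). Its exons share 4095 bases with Scaf4 on the opposite strand. Mitochondrial Sod2 had 4121 ± 511 and 3935 ± 204 (-0.06, 95% interval -0.21 to 0.08). Catalase (Cat), which splits hydrogen peroxide in peroxisomes, had 1315 ± 80.2 and 1435 ± 71.9 (0.13, 95% interval 0.02 to 0.24, edgeR adjusted p = 0.114), with 4 PEA libraries above every CON library.

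The peroxiredoxins, thiol peroxidases that clear most cytosolic and mitochondrial peroxide, had 5 of 6 log2 fold changes below 0, where 48.7% of all genes tested were below 0, and 1 of 6 was called, near the 11.0% of all genes. Prdx6, which is recycled by glutathione and not by thioredoxin (ENSMUSG00000026701, chromosome 1, 161051417 to 161079098), measured 8232 to 8566 in CON (median 8454) and 7374 to 7837 in PEA (median 7733). All 6 PEA libraries lay below every CON library. The change was small but the spread smaller still, with means of 8426 ± 140 and 7669 ± 175 and a log2 fold change of -0.13 (95% interval -0.21 to -0.06, edgeR adjusted p = 0.0261). The call held in 7 of the 12 fits without 1 library and was lost without CON replicate 5 (0.0547), CON replicate 6 (0.0618), PEA replicate 2 (0.0523), PEA replicate 5 (0.0672) and PEA replicate 6 (0.0559). With the replicate number as a block its adjusted p was 0.0602. Prdx1, an abundant cytosolic member, measured 7056 to 8729 in CON (median 7310) and 5823 to 7427 in PEA (median 6739). Of the PEA libraries 5 lay below every CON library, with a log2 fold change of -0.19 (95% interval -0.33 to -0.05, edgeR adjusted p = 0.0705, DESeq2 0.0365). Cytosolic Prdx2 had 7841 ± 488 and 7473 ± 433 (-0.07, 95% interval -0.17 to 0.04) and mitochondrial Prdx3 had 2204 ± 136 and 2048 ± 122 (-0.10, edgeR adjusted p = 0.202). Prdx5, found in several organelles, had 4667 ± 370 and 4430 ± 91 (-0.07, 95% interval -0.18 to 0.03). Prdx4, the member of the endoplasmic reticulum, had the 1 value above 0, with 1608 ± 157 and 1783 ± 139 (0.15, 95% interval 0.01 to 0.29, edgeR adjusted p = 0.142).

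Of the 7 glutathione transferases 3 were lower in PEA and 0 higher, beside the 4.74% of all genes called lower. All but Gsta4 have canonical transcripts under 2000 bases, and of all genes that short 8.93% were called lower. Gstm1, a mu-class enzyme (ENSMUSG00000058135, chromosome 3, 107919380 to 107925380), measured 2064 to 2380 in CON (median 2200) and 1657 to 2082 in PEA (median 1804). All PEA libraries but PEA replicate 1 lay below every CON library. Its log2 fold change came to -0.25 (95% interval -0.37 to -0.13, edgeR adjusted p = 0.0136). Gstp1, the pi-class enzyme (ENSMUSG00000060803, chromosome 19, 4085405 to 4088068), measured 6393 to 7212 in CON (median 6696) and 5421 to 6289 in PEA (median 5827), with no overlap. Its log2 fold change was -0.21 (95% interval -0.31 to -0.11, edgeR adjusted p = 0.0132). Its close copy Gstp2 had a mean of only 18.4 normalized counts over the libraries. Gstm1 and Gstp1 were each called in all 12 fits without 1 library. Gstp1 was not called (log2 fold change -0.12, adjusted p = 0.0793) when a trend with transcript length and GC content was removed with library medians kept. Mgst1, a membrane-bound enzyme of the endoplasmic reticulum and mitochondria (ENSMUSG00000008540, chromosome 6, 138117314 to 138133774), measured 1975 to 2548 in CON (median 2116) and 1737 to 2018 in PEA (median 1877). The groups overlapped through PEA replicates 3 and 6 and CON replicate 2. Mgst1 had a log2 fold change of -0.20 (95% interval -0.33 to -0.07, edgeR adjusted p = 0.0429). It was called in 3 of the 12 fits, without CON replicate 1 (0.047), CON replicate 2 (0.0176) and PEA replicate 3 (0.0379), and reached 0.0947 without PEA replicate 2. With all libraries kept, Mgst1 was not called after thinning to the smallest library (adjusted p = 0.1) or with no filter on low counts (0.0506), nor with the length and GC trend removed and library medians kept (0.0952). Its relative Mgst3 had a log2 fold change of -0.25 with a wider interval (-0.46 to -0.05), from 657 ± 82.5 to 551 ± 80.7, and was not called (edgeR adjusted p = 0.103). Differences between members of a family were not tested. Gstm2, the neighbour of Gstm1 on chromosome 3, had 444 ± 46.5 and 427 ± 47.4 (-0.05, 95% interval -0.23 to 0.13). Gsta4, which detoxifies the lipid peroxidation product hydroxynonenal, had 2185 ± 142 and 2373 ± 348 (0.12, 95% interval -0.05 to 0.29), and Gstt1, at 60.1 ± 16.1 and 74 ± 15, was the lowest of all members (0.31, 95% interval -0.10 to 0.73).

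The 4 genes of NADPH supply did not pass the test. G6pdx, which opens the pentose phosphate pathway, had 1706 ± 151 and 1870 ± 64.5 (0.14, 95% interval 0.02 to 0.25, edgeR adjusted p = 0.116). Pgd, the next NADPH-forming enzyme of that pathway, had 4987 ± 199 and 5374 ± 231 (0.11, 95% interval 0.02 to 0.20, edgeR adjusted p = 0.102). Taldo1, transaldolase, had 2818 ± 151 and 2763 ± 98.6 (-0.03, 95% interval -0.12 to 0.07). Me1, the cytosolic malic enzyme, had 1498 ± 128 and 1557 ± 101 (0.06, 95% interval -0.07 to 0.18).

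Ferritin stores iron that could otherwise feed radical chemistry. The heavy chain Fth1 (ENSMUSG00000024661, chromosome 19, 9957911 to 9962462) measured 69560 to 75448 in CON (median 70861) and 64351 to 69557 in PEA (median 66321). The groups met at their edges without overlap. The log2 fold change of -0.10 (95% interval -0.19 to -0.02) passed the threshold in DESeq2 (adjusted p = 0.0218) and not in edgeR (adjusted p = 0.115). With the length and GC trend removed it was -0.06 (adjusted p = 0.372), or -0.02 (0.749) with library medians kept. The light chain Ftl1 had 12822 ± 745 and 12237 ± 646 (-0.07, 95% interval -0.17 to 0.04). Its value is uncertain, as the copy Ftl1-ps1 drew more counts, with a mean of 17055 in CON and 17619 in PEA. The sum of both was 29878 ± 1329 in CON and 29857 ± 1239 in PEA.

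Levels between genes were compared per kilobase of the canonical transcript, as normalized counts in CON. Fth1 led with 76772 ± 2274, followed by Ftl1 (13233 ± 768, with the reservation above), Gstp1 (7470 ± 322), Txn1 (7174 ± 790) and Gpx1 (4958 ± 259). Gstp1 and Txn1 lay within their spread of each other. Prdx2 (3657 ± 227), Prdx6 (3126 ± 51.9), Prdx5 (2954 ± 234) and Prdx1 (2823 ± 239) came next, of which neighbours overlapped within their SD except Prdx2 and Prdx6. The genes that rose were lower, with Txnrd1 at 1385 ± 27.1, Hmox1 at 1308 ± 111, Sod3 at 1245 ± 172, Gpx3 at 430 ± 147, Srxn1 at 255 ± 13.5 and Nqo1 at 171 ± 32.9. Of the genes that fell, Prdx6 and Gstp1 were named above, and Mgst1 was at 1812 ± 171 and Gstm1 at 1601 ± 86.5. All 4 genes that fell thus lay above all 6 that rose on this scale in CON. The scale divides by length, and the genes that fell had a median length of 1287 bases, those that rose 3084. In undivided normalized counts the order did not hold. There Gstm1 (2209) and Mgst1 (2164) lay below Txnrd1 (4605) and Sod3 (4885) in CON.

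**Figure D3:**
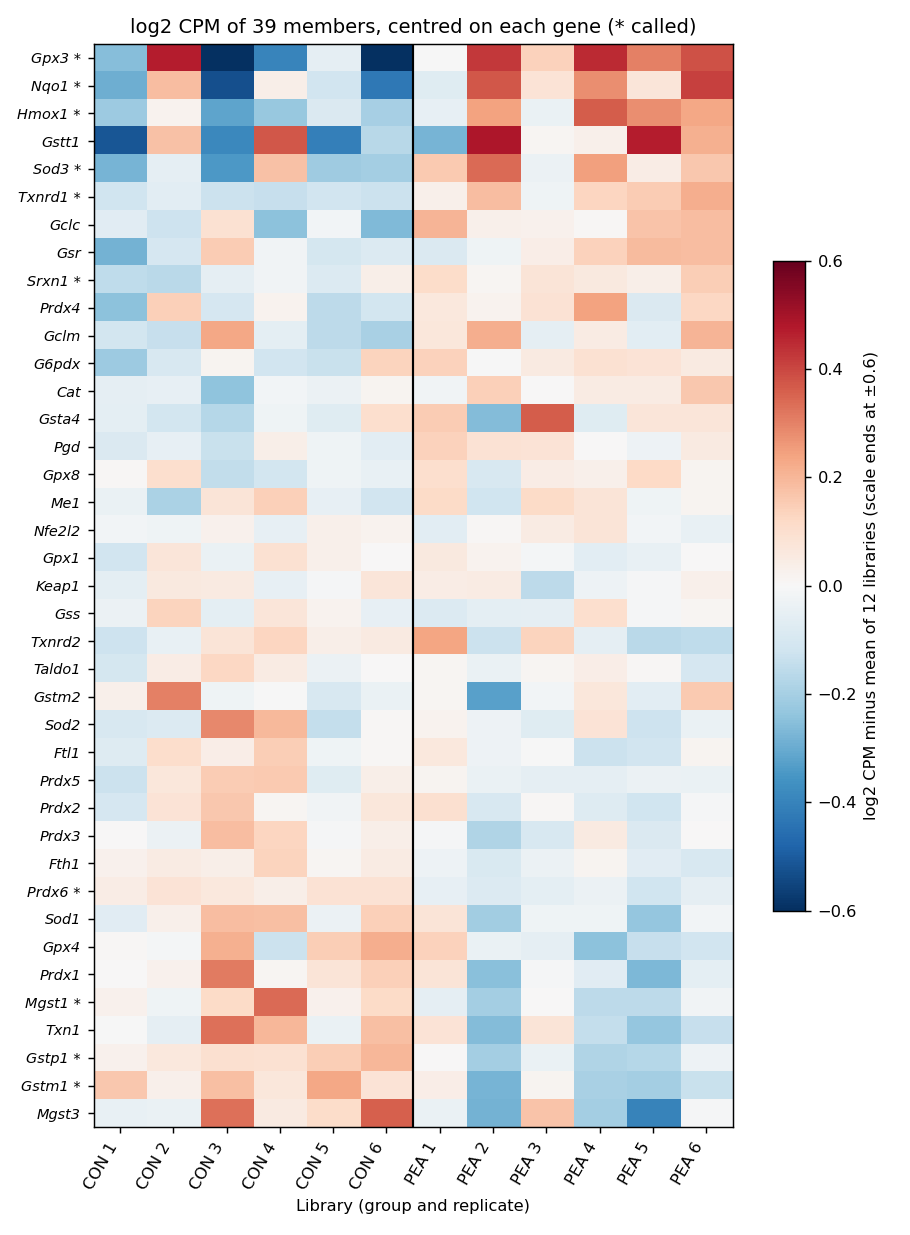
Log2 CPM of the 39 antioxidant genes (rows, ordered by log2 fold change, called genes starred) in the 12 libraries (columns, CON left of the line and PEA right), centred on each gene's mean, from blue (lower) to red (higher). CON replicate 2 is the reddest CON library for Gpx3 and Nqo1, above PEA replicate 1 in both, and PEA replicates 1 and 3 are the palest PEA libraries in Hmox1 and Gstm1.

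Libraries of 1 group differed in how far these genes moved. CON replicate 2 was the highest CON library for Nqo1 (583), Hmox1 (2348), Txnrd1 (4780) and Gpx3 (1969), but the lowest for Srxn1 (1727), Gstm1 (2064) and Mgst1 (1975). PEA replicates 1 and 3 held the lowest Hmox1 (2244 and 2254) and Txnrd1 (5101 and 4894) and the highest Gstm1 (2082 and 2048) of their group. For Gstp1 PEA replicate 1 was highest at 6289, followed by PEA replicate 6 at 6139 and PEA replicate 3 at 6100. Without CON replicate 2, 11 members were called, against 4 without CON replicate 5, PEA replicate 2 or PEA replicate 6. Over all genes, 2203 were called when CON replicate 2 was left out and 778 when PEA replicate 6 was.

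Transcript length moved with the direction of change. Of the 19 members with a canonical transcript under 2000 bases 1 rose and 3 fell, with a median log2 fold change of -0.07. Among all genes tested of that length 3.43% were called higher and 8.93% lower. Of the 20 longer ones 5 rose and 1 fell, with a median of 0.125, where 7.29% of all longer genes were called higher and 3.31% lower. Over all genes tested the median log2 fold change went in the same direction, from -0.072 in the shortest of 5 equal bins (151 to 1718 bases) to 0.037 in the longest. With a trend over length and GC content removed, the medians of the members were -0.05 and 0.08, and 13.5% of all genes were called. That fit also recentred each library, which took the all-gene median from 0.005 to -0.029 on the log2 scale. The split of all genes called went from 829 higher and 623 lower to 715 higher and 1062 lower. When the same trend was removed but each library's median deviation from the gene means was kept, 11.4% of all genes were called, 861 higher and 630 lower, so the reversed split came with the recentring. Both fits called Hmox1 (0.34 recentred and 0.37 with medians kept), Txnrd1 (0.19 and 0.23), Gpx3, Sod3, Prdx6 and Gstm1 (-0.25 and -0.21) and gained Prdx1 (-0.23 and -0.19) and Prdx4 (0.18 and 0.22). Both dropped Nqo1 and Srxn1. Nqo1 had log2 fold changes of 0.34 and 0.37, beside 0.38 in the main fit (adjusted p = 0.0561 and 0.0544). Srxn1 had 0.08 and 0.11, beside 0.15 (adjusted p = 0.403 and 0.186). Other members depended on the centring. Gstp1 and Mgst1 were called in the recentred fit only (0.035 and 0.0389), as was Sod1 (0.0484), whereas Gclc was called with medians kept (0.0477).

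**Figure D4:**
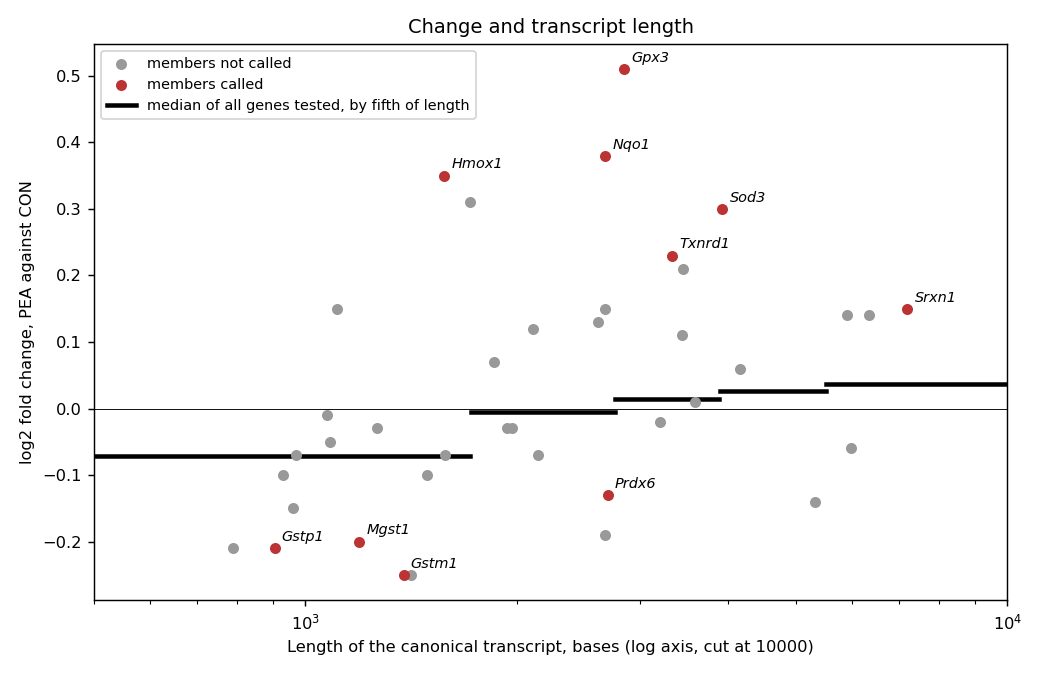
Log2 fold change, PEA against CON (vertical axis), of the 39 antioxidant genes by the length of the canonical transcript in bases (log axis), with called genes in red and named. Black bars give the median of all genes tested in each of 5 bins of length, from -0.072 to 0.037, and Hmox1 is the 1 gene that rose among members under 2000 bases.

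A wider list of 92 genes of the same pathways was examined, of which 86 were tested and 12 called, 6 higher and 6 lower (14.0%, beside the 11.0% of all genes). Their median log2 fold change was 0.034. In cysteine supply and glutathione turnover 3 of 10 genes were called higher and 0 lower, beside the 6.31% of all genes called higher. Of the groups in this list it held the most genes called higher, the others holding 0 or 1. Chac1, which degrades glutathione, went from 462 ± 132 to 758 ± 80.9 normalized counts (log2 fold change 0.72, 95% interval 0.43 to 1.02, edgeR adjusted p = 0.00452). Slc3a2, the heavy chain shared by the cystine importer and other amino acid transporters, went from 4159 ± 556 to 5232 ± 576 (0.33, edgeR adjusted p = 0.0195). Cth, which makes cysteine from cystathionine, went from 86.8 ± 39.9 to 156 ± 31.2 (0.83, edgeR adjusted p = 0.0321). The Cth call was lost in 6 of the 12 fits without 1 library, those without CON replicate 3, 5 or 6 or PEA replicate 4, 5 or 6, at adjusted p between 0.0544 and 0.0788. The cystine importer's own subunit Slc7a11 had a log2 fold change of 0.57 with an interval of 0.07 to 1.07 and was not called (edgeR adjusted p = 0.129). Slc48a1, a heme transporter and NRF2 target, rose from 3044 ± 241 to 3613 ± 112 (0.25, edgeR adjusted p = 0.0061), in the direction of Hmox1. Sesn2, a sestrin induced by several stresses, rose from 1233 ± 223 to 1741 ± 240 (0.50, edgeR adjusted p = 0.00961).

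Of the wider genes that fell, Gstm5, another mu-class transferase, went from 592 ± 46 to 478 ± 21.2 without overlap (-0.30, edgeR adjusted p = 0.00688, 0.0608 with counts thinned to the smallest library). Of the 7 transferases tested in the wider list, Gstm5 included, 5 had log2 fold changes above 0, of which 0 were called (median of the 7, 0.139). Akr1b8, an aldo-keto reductase listed among NRF2 targets, went from 2352 ± 80.6 to 2068 ± 81, also without overlap (-0.18, edgeR adjusted p = 0.0102). Rbx1, a subunit of the ubiquitin ligase that KEAP1 serves, went from 2611 ± 215 to 2286 ± 130 (-0.19, edgeR adjusted p = 0.0401). Rbx1 kept its call in 4 of the 12 fits, without CON replicate 1, CON replicate 2, PEA replicate 1 or PEA replicate 3, and reached 0.0957 without CON replicate 6. The other called genes were Tkt (transketolase), which was higher, and Msra (methionine sulfoxide reductase), Selenon (a selenoprotein) and Mt1 (metallothionein), which were lower. These 4 calls were the least firm of the 12. Tkt kept its call in 2 of the 12 fits without 1 library (CON replicate 2 or PEA replicate 4), Msra in 2 (CON replicate 1 or 2), Selenon in 2 (CON replicate 2 or 4) and Mt1 in 3 (CON replicate 1, CON replicate 2 or PEA replicate 2). Their adjusted p reached 0.0985 for Tkt and 0.0914 for Msra without PEA replicate 5, 0.102 for Selenon without PEA replicate 6 and 0.102 for Mt1 without PEA replicate 5. With the length and GC trend removed Mt1 was at 0.105, with counts thinned to the smallest library Tkt was at 0.0932 and Selenon at 0.113, and with limma-voom Msra was at 0.0792. Of the 12 NRF2 targets in this wider list 1 was higher and 1 lower, close to the 6.31% and 4.74% of all genes tested.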

How the data were processed

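RNA-seq of 12 libraries (6 CON, 6 PEA) was analysed from 2 tables. Per the labels and methods, the authors prepared poly-A libraries, aligned reads to mm39 with STAR (version 4.4.1d in the submitters' processing notes) and assigned them to genes of Ensembl with Partek Flow. The first deposited table holds estimated counts, of which 70.2% of those above 0 were not whole. The other deposited table is a signal, each library's estimated counts scaled by a single DESeq2 median-ratio factor, called normalized counts in the text. PEA replicate 2 has 2 label entries for 1 row of values and was 1 library. A further 2240 protein-coding genes with higher identifiers than those in the tables were not analysed here.

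Estimated counts were rounded and tested with edgeR 4.0.16 (TMM, quasi-likelihood, default filter on low counts, adjusted p below 0.05) in R 4.3.3, over 13142 genes. TMM factors were 0.988 to 1.02 and the biological coefficient of variation was 0.106. Lengths, GC content and positions came from canonical transcripts of GENCODE on GRCm39, and promoters from RefSeq on GRCm38.p6. Alternatives were DESeq2 1.42.0, limma 3.58.1 (voom, and normalized counts with pseudocount 1 or 10), median-ratio factors, other filters, unrounded counts, thinning to the smallest library, a replicate block, removal of a length and GC trend (with library medians kept, added after seeing the data), and each library left out. Tests were tested on simulated data. Tables and figures used Python 3.11.15 and matplotlib 3.10.9.

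All 40 members are named, and of the wider list those called, with values for the 8 with the smallest p. Slc7a11 was named after its values were seen. Members and lists were chosen with earlier results of these data known. Same-numbered libraries of the groups did not deviate together (correlations -0.083 to 0.065). Errors cover counting and the spread between libraries only.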

Additional observations from a re-analysis of the deposited data

Results flagged for a closer look

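In 10 of the 102 groups of 6 libraries examined (51 genes, 2 groups each), 1 library stood apart from the other 5. The rule used marks about 1 in 20 groups of independent, normally distributed values. These groups share the same 12 libraries, so the number marked was not compared with that rate. CON replicate 2 was the highest of its group for Txnrd1 (4780 normalized counts, the next at 4607), Gstm2 (535, the next at 442), Slc48a1 (3511, the next at 3082) and Slc3a2 (5215, the next at 4211). CON replicate 3 was the highest for Gclm (905, the next at 738) and the lowest for Cat (1159, the next at 1321). CON replicate 4 was the highest for Mgst1 (2548, the next at 2181) and Fth1 (75448, the next at 71136). In the PEA group, replicate 1 was the highest for Prdx5 (4610, the next at 4421) and replicate 3 the highest for Akr1b8 (2226, the next at 2062). Txnrd1, Fth1 and Akr1b8 did not overlap between the groups with these libraries included.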

How the results depend on the processing

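With all libraries kept, between 8 (no filter on low counts, or thinned to the smallest library) and 13 (DESeq2) members were called, against 10, and between 9 and 15 genes of the wider list, against 12. Leaving out 1 library moved the members called to between 4 and 11, the wider list to between 6 and 21 and all genes to between 778 and 2203. Hmox1, Txnrd1 and Gstm1 were called in every fit run, and Gstp1 in every one but that with the length and GC trend removed and library medians kept, an alternative chosen after seeing the data. With the replicate number as a replicate block 11 members were called. The block added Mgst3, Prdx1 and Txn1, left out Prdx6 and Srxn1, and called 1570 of all genes. DESeq2 called 1915 genes and the fit with the length and GC trend removed 1777.

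Signs changed only among genes near 0 and not called. Nfe2l2 went from 0.006 to -0.012 thinned and to -0.037 with the length and GC trend removed (-0.002 with library medians kept), Txnrd2 from -0.032 to 0.026 thinned, and Gpx1 from -0.014 to 0.016 with the trend removed (0.051 with medians kept). With medians kept, Gstm2 (0.006), Taldo1 (0.019) and Ftl1 (0.011) also turned positive. With 1 library left out the log2 fold change ranged from -0.01 to 0.018 for Nfe2l2, -0.037 to 0.004 for Keap1, -0.038 to 0.003 for Gpx1 and -0.094 to 0.006 for Gstm2. The cause was not tested. Thinning every library to the smallest total, the setting that bears on depth, ended the calls of Srxn1 (adjusted p = 0.0667), Gpx3 (0.0614) and Mgst1 (0.1) at log2 fold changes of 0.17, 0.48 and -0.18, beside 0.15, 0.51 and -0.20 unthinned, and added Prdx1 (0.049).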
